A study of Homo sapiens with 8 samples.

Results

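The genes described here are 53 that build and run the mitotic spindle, the kinetochores and the condensed chromosomes. They were listed by name for their roles in mitosis, with earlier results of these data known. Each gene was read from a probe set annotated to no other gene, the brightest one on average across the 8 arrays, which gave values for 52 of the 53 genes, out of 18231 genes on the array. The exception was PTTG1, which encodes securin, the inhibitor of separase: its probe sets are also annotated to its relatives PTTG2 or PTTG3P.

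Expression was measured in JVM13, an established human B-cell line from a prolymphocytic leukaemia, on an Affymetrix expression array. One group carried an inducible vector for the T286A form of cyclin D1 (3 arrays), one carried the vector for wild-type cyclin D1 (3 arrays), and the control cells carried the empty vector (2 arrays). The mutated threonine is a phosphorylation site that leads to nuclear export and destruction of cyclin D1, so the mutant protein is more stable. Cells of all groups, empty vector included, were given 0.1 µg/mL doxycycline, and none was left without it. The labels do not say how long induction lasted, whether a construct was a clone or a mixed population, or whether replicates were separate cultures, so the p-values reflect how far these particular arrays scatter, and that scatter may be technical only.

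Cyclin D1 partners CDK4 and CDK6, which phosphorylate RB and so release E2F factors at the start of the cell cycle. The genes described here act later. For many of them, though not all, transcription is known to peak in G2 and M phase. The MuvB complex, with B-MYB and FOXM1, then activates promoters that carry a CHR element. In quiescent cells the same complex, joined to p130 or p107 and E2F4 as DREAM, represses them. At mitosis, condensin compacts the chromosomes, kinetochores attach them to spindle microtubules, the spindle checkpoint holds back the anaphase-promoting complex until attachment is complete, and separase then frees the sister chromatids.

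Values are log2 expression values from robust multi-array averaging (RMA), so a difference of 1 is a change of 2-fold, and each is relative to the other genes on the array. CCND1, which encodes cyclin D1, was 5.90 higher with T286A and 5.95 higher with wild type than with empty vector. This checks the labels of the constructs against empty vector only: T286A minus wild type was -0.04 (adjusted p = 0.902) and those arrays overlapped, so CCND1 does not tell the 2 constructs apart. Of 8 measured B-cell markers 7 lay at or above the median gene (5.94), led by MS4A1 at 13.3; BANK1 was at 4.06. The 5 T-cell, 3 NK-cell, 5 myeloid and 3 fibroblast markers all lay below the median gene. The second wild-type array was the least like the others: it correlated with the remaining wild-type arrays at 0.994 to 0.995, and those correlated with each other at 0.997.

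All 52 measured genes averaged higher with each construct than with empty vector, where 49.1% of all genes did so for T286A, 50.5% for wild type and 49.9% for both constructs together. The median difference was 0.35 for T286A and 0.24 for wild type, and 0.29 for the mean of both constructs, while the median over all 18231 genes was within 0.01 of 0 in each of these comparisons. These are small shifts: the largest, that of CENPU with T286A, was 0.58 on the log2 scale. All 52 lay at or above the median gene in mean level, and no detection calls were used. An array of bulk RNA cannot tell apart more cells in G2 and mitosis and more RNA of these genes per cell.

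For both constructs together against empty vector, 14 of the 52 genes were called higher and 0 lower, a call being an adjusted p under 0.05 (Benjamini-Hochberg, over the whole array). Over all genes 0.702% were called higher and 0.697% lower. In 47 of the 52, each of the 6 construct arrays was above both empty vector arrays, a pattern that 6.68% of all genes showed in that direction and 6.88% in the other. The 5 genes whose arrays overlapped were BUB3, MAD2L1, KIF4A, CENPE and SPC24. At an unadjusted p under 0.05, 47 genes were higher and 0 lower, against 5.72% and 6.74% of all genes. The number called rests on few arrays: it was 0 without either empty vector array and 1 without any one T286A array, whereas all 52 differences stayed positive in these fits.

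**Figure D1:**
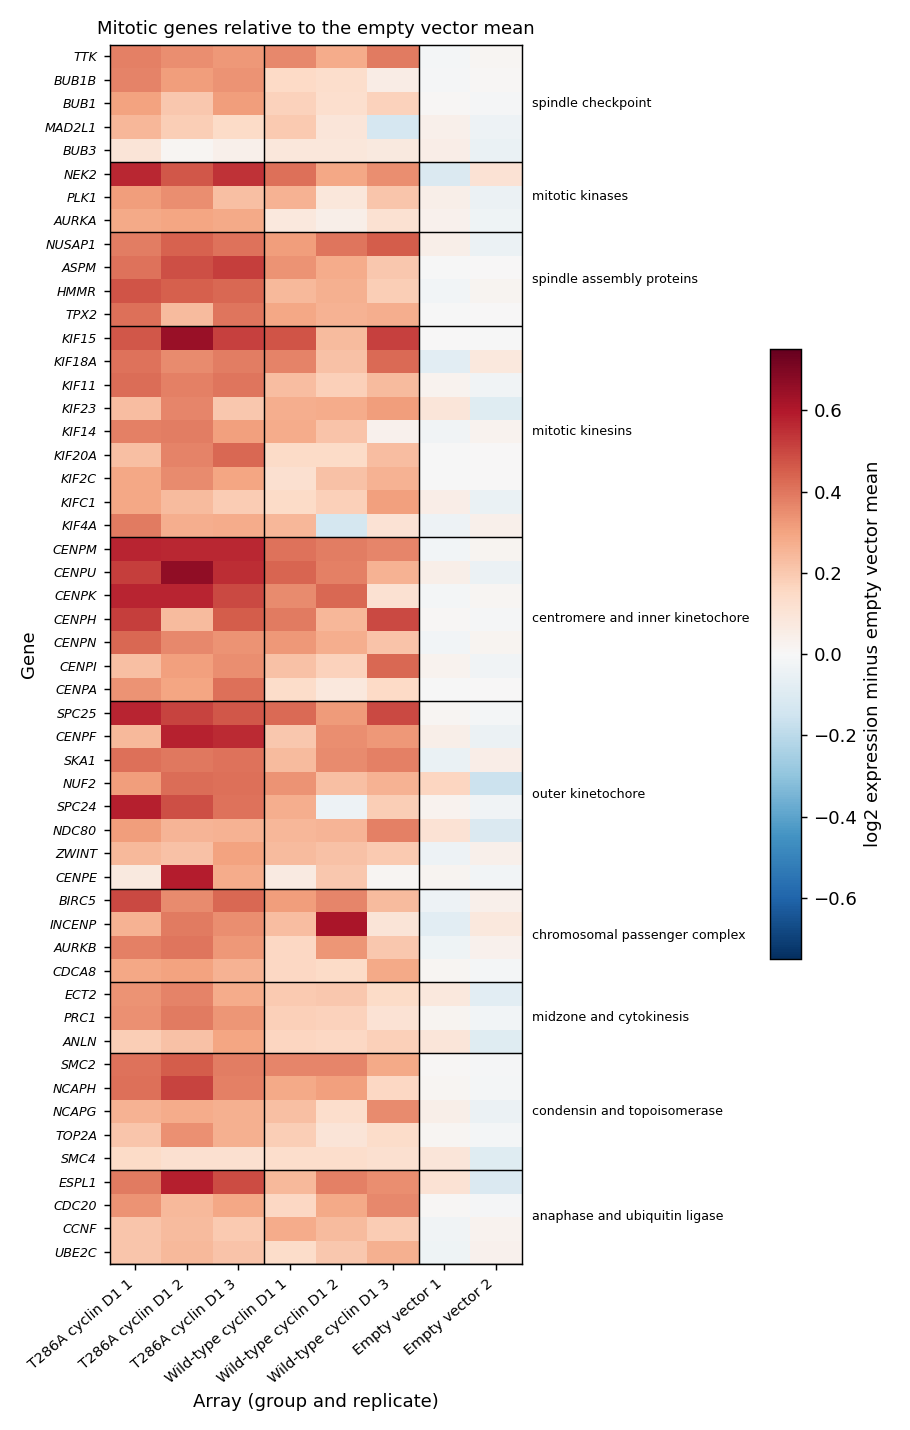
Heat map of the 52 genes (rows, grouped by role) on the 8 arrays (columns: T286A, wild type, empty vector). Colour is the log2 expression of a gene minus its mean over the empty vector arrays, red for higher and blue for lower. The T286A columns are the reddest: the median over the genes is 0.34, 0.36 and 0.34 on the T286A arrays and 0.24, 0.22 and 0.23 on the wild-type arrays.

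Seen array by array, the 3 replicates of a construct gave nearly the same picture. The median of the 52 genes, relative to the empty vector mean, was 0.34, 0.36 and 0.34 on the T286A arrays. It was 0.24, 0.22 and 0.23 on the wild-type arrays. On the empty vector arrays it was 0.01 and -0.01, equal and opposite by construction, since their own mean is the reference. Wild-type replicate 2, the array that stood apart, thus lay close to the other wild-type arrays for these genes. On each T286A array 50 of the 52 genes were above their own mean over all arrays, on the wild-type arrays 31 to 34, and on each empty vector array 0. Group means were ordered T286A, wild type, empty vector from high to low in 48 of the 52 genes. Neither count was made over all genes, and the arrays also differed in their median over all genes, as described below.

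The 5 largest differences for both constructs together among genes with a promoter in the RefSeq table (GRCh38.p14) belonged to KIF15, CENPU, SPC25, NEK2 and CENPK. Their promoters are shown because the CHR element, the CCAAT box and the E2F site are the known inputs to mitotic and S-phase promoters. Each runs 5′ to 3′ on the gene's strand, from 250 bases before the start site to 50 after it. Capitals mark matches on either strand to TTTGAA or TTCGAA (CHR), to CCAAT, or to TTTNNCGC (E2F). No matches overlapped in these sequences.
KIF15, chr3:44761544-44761843, plus strand: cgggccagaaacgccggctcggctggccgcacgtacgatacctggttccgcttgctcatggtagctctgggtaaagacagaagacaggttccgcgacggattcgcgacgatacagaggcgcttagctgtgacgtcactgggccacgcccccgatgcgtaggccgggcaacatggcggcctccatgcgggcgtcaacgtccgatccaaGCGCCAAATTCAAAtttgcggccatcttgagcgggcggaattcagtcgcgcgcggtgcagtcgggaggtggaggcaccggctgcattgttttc
CENPU, chr4:184734047-184734346, minus strand: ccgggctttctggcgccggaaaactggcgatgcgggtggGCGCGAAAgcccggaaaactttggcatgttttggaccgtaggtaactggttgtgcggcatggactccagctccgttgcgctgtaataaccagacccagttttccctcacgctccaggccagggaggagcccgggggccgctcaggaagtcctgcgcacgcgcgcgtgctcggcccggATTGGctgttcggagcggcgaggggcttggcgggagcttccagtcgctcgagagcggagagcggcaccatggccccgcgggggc
SPC25, chr2:168890381-168890680, minus strand: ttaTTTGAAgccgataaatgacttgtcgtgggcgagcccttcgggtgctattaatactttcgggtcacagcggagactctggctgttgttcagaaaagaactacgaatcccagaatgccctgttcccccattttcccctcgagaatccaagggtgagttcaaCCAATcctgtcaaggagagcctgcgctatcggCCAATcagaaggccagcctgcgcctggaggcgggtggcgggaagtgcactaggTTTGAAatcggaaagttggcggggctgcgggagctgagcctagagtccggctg
NEK2, chr1:211675572-211675871, minus strand: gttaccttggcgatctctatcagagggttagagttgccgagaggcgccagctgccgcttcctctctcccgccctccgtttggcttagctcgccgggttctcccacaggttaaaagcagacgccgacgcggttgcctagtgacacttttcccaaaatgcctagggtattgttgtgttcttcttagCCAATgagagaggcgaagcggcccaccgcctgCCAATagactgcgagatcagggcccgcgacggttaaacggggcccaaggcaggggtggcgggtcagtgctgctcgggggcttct
CENPK, chr5:65563119-65563418, minus strand: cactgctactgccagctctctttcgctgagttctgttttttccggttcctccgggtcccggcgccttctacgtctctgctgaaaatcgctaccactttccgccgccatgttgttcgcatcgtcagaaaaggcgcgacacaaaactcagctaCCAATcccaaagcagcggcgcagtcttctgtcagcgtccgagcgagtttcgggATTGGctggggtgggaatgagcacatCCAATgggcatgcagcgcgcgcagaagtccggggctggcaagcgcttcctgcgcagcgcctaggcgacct
Counted from the start site, an E2F match in KIF15 begins at -43 and a CHR match follows it directly at -35. SPC25 has CHR matches at -247 and -3, with CCAAT boxes at -88 and -56. NEK2 has 2 CCAAT boxes and CENPK has 3, and neither window holds the CHR letters. CENPU has 1 CCAAT box and 1 E2F match.

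Over the 52 measured genes, 44 had 49 promoters in that table. A CHR match was present in 36 of these 49 promoters (73.5%), against 16.4% of all 35116 promoters of the same length, which include those of non-coding genes. A CCAAT box was present in 34 (69.4%), against 34.6% of all, and both in 26 (53.1%), against 6.4%. The E2F letters were in 7 (14.3%), against 6.9%. Of the other mitotic genes described below, 67 had 82 promoters in the table. A CHR match was in 36 of these 82 (43.9%), a CCAAT box in 44 (53.7%), both in 24 (29.3%) and the E2F letters in 18 (22.0%). Of the 43 measured genes of the replication origin and fork, which act in S phase, 35 had 45 promoters in the table. A CHR match was in 2 of these 45 (4.4%), the E2F letters in 22 (48.9%) and a CCAAT box in 24 (53.3%). Presence of a CHR match did not go with a larger difference: the median for both constructs together was 0.27 over the 34 genes with a match and 0.31 over the 10 without. A match of letters is a description and does not show that a factor binds.

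The inner kinetochore, the protein layer that sits on centromeric chromatin, had the largest median of the role groups for both constructs together, 0.39. Its 7 genes had a median difference of 0.40 with T286A and 0.30 with wild type. For both constructs together 3 of the 7 were called, against 0.702% of all genes called higher. The role groups hold few genes, and whether they differ was not tested. CENPM, a subunit of the constitutive centromere-associated network, was at 10.32, 10.31 and 10.31 on the T286A arrays, 10.15, 10.13 and 10.11 on the wild-type arrays, and 9.73 and 9.77 on the empty vector arrays. The 3 groups did not overlap, and the replicates of each construct lay closer together than the groups. CENPM was higher by 0.57 ± 0.060 with T286A (SE, adjusted p = 0.0148), by 0.38 ± 0.060 with wild type (adjusted p = 0.0215) and by 0.48 ± 0.054 with both together (adjusted p = 0.0124), the smallest adjusted p among the 52 genes. CENPU, of the same network, was at 10.36, 10.50 and 10.39 with T286A, 10.27, 10.21 and 10.09 with wild type, and 9.88 and 9.79 with empty vector. Its groups did not overlap either, with T286A highest. It rose by 0.58 ± 0.082 with T286A (adjusted p = 0.0315) and was 0.36 ± 0.082 higher with wild type (adjusted p = 0.0833). CENPN, which reads the centromeric nucleosome, averaged 11.04 ± 0.048 with T286A, 10.93 ± 0.057 with wild type (SD, n = 3 each) and 10.66 ± 0.025 with empty vector (SD, n = 2). It was called for both constructs together (0.32, adjusted p = 0.0477) and in neither construct alone.

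The other 4 genes of this layer were not called. CENPK, CENPH and CENPI, network subunits like CENPM, were 0.42, 0.39 and 0.28 above empty vector in both constructs together. CENPK, the first of these, spanned 9.24 to 9.56 on the wild-type arrays, wider than its 9.63 to 9.70 with T286A. CENPA, the histone H3 variant that marks the centromere, was at 11.05, 11.01 and 11.12 with T286A, 10.85, 10.79 and 10.86 with wild type, and 10.71 on both empty vector arrays. The groups were separate, with wild type nearer to empty vector. Its differences from empty vector were 0.35 (adjusted p = 0.0697) with T286A and 0.12 (adjusted p = 0.488) with wild type.

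The outer kinetochore binds microtubules. All 8 of its genes averaged higher with each construct, with medians of 0.39 for T286A and 0.28 for wild type. For both constructs together 2 of the 8 were called, against 0.702% of all genes called higher. SPC25, of the NDC80 complex that grips the microtubule, was at 10.32, 10.26 and 10.21 with T286A, 10.17, 10.06 and 10.24 with wild type, and 9.76 and 9.73 with empty vector. Both constructs lay clear of empty vector and overlapped each other. SPC25 rose by 0.52 ± 0.075 with T286A (adjusted p = 0.0359) and by 0.41 ± 0.075 with wild type (adjusted p = 0.039). The other members of that 4-protein complex were less separated from empty vector. SPC24 was 0.49 higher with T286A and 0.14 higher with wild type, NUF2 0.38 and 0.27, and NDC80 0.28 and 0.29, and none of these was called (adjusted p from 0.0861 to 0.629). SKA1, of a complex that follows microtubule ends, was at 10.23, 10.21 and 10.23 with T286A, 10.06, 10.17 and 10.20 with wild type, and 9.77 and 9.87 with empty vector. SKA1 was called for both together (0.36 ± 0.064, adjusted p = 0.039). CENPE, a kinetochore motor, was the noisiest of the group, at 9.34, 9.86 and 9.55 with T286A, 9.33, 9.47 and 9.28 with wild type, and 9.29 and 9.25 with empty vector. CENPF, a large protein of the kinetochore corona, and ZWINT, a docking factor, were 0.38 and 0.23 higher for both together (adjusted p = 0.136 and 0.112).

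**Figure D2:**
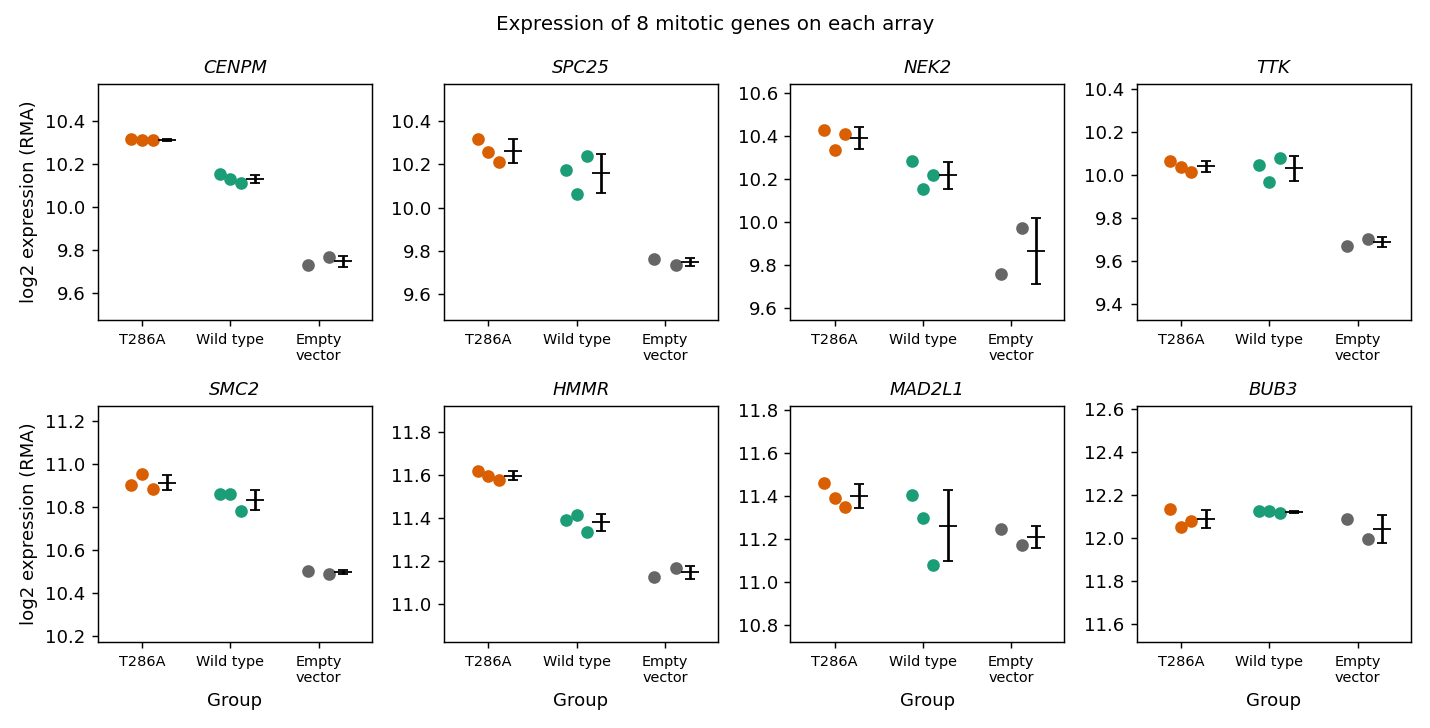
Log2 expression (RMA) of 8 genes on each array, one panel per gene, with points for arrays of the T286A, wild-type and empty vector groups. The bar beside each group is the mean ± SD (n = 3, 3 and 2), and all panels span the same log2 range. CENPM separates into 3 levels, TTK and SPC25 into constructs above empty vector, and MAD2L1 and BUB3 overlap between groups.

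Among spindle assembly proteins, 3 of 4 were called for both constructs together, against 0.702% of all genes called higher. The medians were 0.43 with T286A and 0.27 with wild type. HMMR, a spindle protein also known as a hyaluronan receptor, was at 11.62, 11.60 and 11.58 with T286A, 11.39, 11.41 and 11.33 with wild type, and 11.13 and 11.17 with empty vector. ASPM, which acts at spindle poles, was at 10.06, 10.14 and 10.17 with T286A, 9.99, 9.93 and 9.86 with wild type, and 9.65 on both empty vector arrays. Both genes formed 3 separate levels with T286A at the top. HMMR rose by 0.45 ± 0.063 (adjusted p = 0.0315) and ASPM by 0.47 ± 0.071 (adjusted p = 0.0399) with T286A, while their differences of 0.23 and 0.27 with wild type were not called (adjusted p = 0.137 and 0.121). NUSAP1, which bundles microtubules, showed no such step between constructs: it was at 11.38, 11.43 and 11.40 with T286A, 11.31, 11.39 and 11.45 with wild type, and 11.04 and 10.95 with empty vector. NUSAP1 rose by 0.39 ± 0.071 with wild type (adjusted p = 0.039) and was 0.41 ± 0.071 higher with T286A (adjusted p = 0.055). TPX2, the activator of Aurora A, was 0.31 higher in both together (adjusted p = 0.0698).

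Of the 9 mitotic kinesins, motors that slide, shorten or cross-link microtubules, 2 were called for both constructs together. Over all genes 0.702% were called higher. KIF15, which helps keep spindle poles apart, was at 8.84, 9.02 and 8.88 with T286A, 8.84, 8.61 and 8.88 with wild type, and 8.37 on both empty vector arrays. The constructs overlapped and both stood clear of empty vector, with a joint difference of 0.48 ± 0.088 (adjusted p = 0.0459). KIF11, the main motor of pole separation, was at 11.05, 11.01 and 11.03 with T286A, 10.86, 10.81 and 10.87 with wild type, and 10.66 and 10.61 with empty vector. It rose by 0.40 ± 0.062 with T286A (adjusted p = 0.0449), and was 0.22 higher with wild type (adjusted p = 0.164). The other 7 were KIF18A, which damps chromosome movement, KIF2C, a microtubule depolymerase, the chromosome-bound KIF4A, the minus-end motor KIFC1, and KIF14, KIF20A and KIF23, which act in cytokinesis. Their joint differences ran from 0.19 for KIF4A to 0.36 for KIF18A, and none was called. KIF4A was the one kinesin whose wild-type arrays overlapped with empty vector, at 8.63, 8.25 and 8.49 against 8.35 and 8.42.

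Of the 3 mitotic kinases 1 was called for both constructs together, against 0.702% of all genes called higher. All 3 were higher at an unadjusted limma p under 0.05, against 5.72% of all genes. NEK2, which separates centrosomes, was at 10.43, 10.33 and 10.41 with T286A, 10.28, 10.15 and 10.21 with wild type, and 9.76 and 9.97 with empty vector. Its empty vector arrays differed by more than the arrays of either construct, yet the groups did not overlap. NEK2 rose by 0.52 ± 0.084 with T286A (adjusted p = 0.0458) and was 0.35 ± 0.084 higher with wild type (adjusted p = 0.0944). AURKA, the Aurora kinase of centrosomes, was at 10.90, 10.91 and 10.90 with T286A, 10.69, 10.66 and 10.73 with wild type, and 10.64 and 10.58 with empty vector. Its 3 groups did not overlap, and wild type lay just above empty vector (0.08, against 0.29 for T286A, adjusted p = 0.654 and 0.0934). PLK1, a kinase with roles from mitotic entry to cytokinesis, was 0.30 higher with T286A and 0.18 higher with wild type (adjusted p = 0.159 and 0.364).

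Spindle checkpoint genes had the lowest median of the role groups for both constructs together, 0.22. Of these 5 genes 1 was called, against 0.702% of all genes called higher. TTK, the kinase that starts checkpoint signalling at kinetochores, was at 10.06, 10.04 and 10.02 with T286A, 10.04, 9.97 and 10.08 with wild type, and 9.67 and 9.70 with empty vector. The constructs were at the same level within their spread. TTK rose by 0.34 ± 0.065 with wild type (adjusted p = 0.0457) and was 0.35 ± 0.065 higher with T286A (adjusted p = 0.0647). BUB1 and BUB1B, a checkpoint kinase and its relative in the inhibitory complex, were 0.27 and 0.34 higher with T286A and 0.16 and 0.11 higher with wild type, not called. The smallest joint differences of the 52 genes were those of 2 other parts of that complex: BUB3 at 0.06 (95% interval -0.07 to 0.20) and MAD2L1 at 0.12 (-0.08 to 0.33). BUB3 was at 12.13, 12.05 and 12.08 with T286A, 12.12, 12.12 and 12.11 with wild type, and 12.09 and 11.99 with empty vector. MAD2L1 had arrays at 11.46, 11.39 and 11.35 with T286A, 11.41, 11.30 and 11.08 with wild type, and 11.25 and 11.17 with empty vector. For both genes the 6 construct arrays overlapped with empty vector. These small values depend on the probe set: the 3 probe sets of BUB3 ran from 0.06 to 0.22 and the 4 of MAD2L1 from 0.08 to 0.20.

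The chromosomal passenger complex corrects faulty attachments and later directs cytokinesis. BIRC5, its survivin subunit, was at 10.90, 10.76 and 10.84 with T286A, 10.72, 10.77 and 10.64 with wild type, and 10.37 and 10.44 with empty vector. Both constructs were above empty vector, and BIRC5 was called for both together (0.37 ± 0.067, adjusted p = 0.0435). The kinase AURKB, the scaffold INCENP and CDCA8, which encodes borealin, were 0.30, 0.32 and 0.24 higher (adjusted p = 0.0825, 0.333 and 0.126). INCENP was spread widely over the wild-type arrays, at 7.28, 7.66 and 7.14, with 7.66 on replicate 2. At the midzone and in cytokinesis, the microtubule cross-linker PRC1, the RhoA activator ECT2 and the ring scaffold ANLN were 0.25, 0.25 and 0.20 higher. Of these 3 genes 0 were called, against 0.702% of all genes called higher. At an unadjusted p under 0.05, limma found 3 of 3 higher, against 5.72% of all genes.

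SMC2, the ATPase subunit shared by both condensins, was at 10.90, 10.95 and 10.88 with T286A, 10.86, 10.86 and 10.78 with wild type, and 10.50 and 10.49 with empty vector. Each construct lay clear of empty vector, and SMC2 was called higher with each (T286A 0.42 ± 0.065, adjusted p = 0.044; wild type 0.34 ± 0.065, adjusted p = 0.046). SMC4, its partner ATPase, was at 13.11, 13.09 and 13.09 with T286A, 13.10, 13.10 and 13.09 with wild type, and 13.06 and 12.88 with empty vector. The first empty vector array lay close to the constructs and the second apart, and the joint difference was 0.13 (95% interval -0.02 to 0.28). The 4 probe sets of SMC4 ran from 0.13 to 0.32. The condensin I subunits NCAPH and NCAPG were 0.34 and 0.25 higher (adjusted p = 0.0607 and 0.162), and TOP2A, the topoisomerase that untangles chromosomes, 0.21 (adjusted p = 0.188).

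Genes of anaphase onset gave 0 calls among the 4 measured, against 0.702% of all genes called higher. All 4 were higher at an unadjusted limma p under 0.05, against 5.72% of all genes. ESPL1, which encodes separase, was at 9.13, 9.32 and 9.22 with T286A, 8.98, 9.11 and 9.08 with wild type, and 8.84 and 8.63 with empty vector. It had the largest joint difference of the 4, at 0.41 ± 0.083 (adjusted p = 0.0647). CDC20, the activator of the anaphase-promoting complex, UBE2C, the ubiquitin-conjugating enzyme of that complex, and CCNF, a substrate receptor of another ubiquitin ligase, were 0.28, 0.21 and 0.23 higher.

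**Figure D3:**
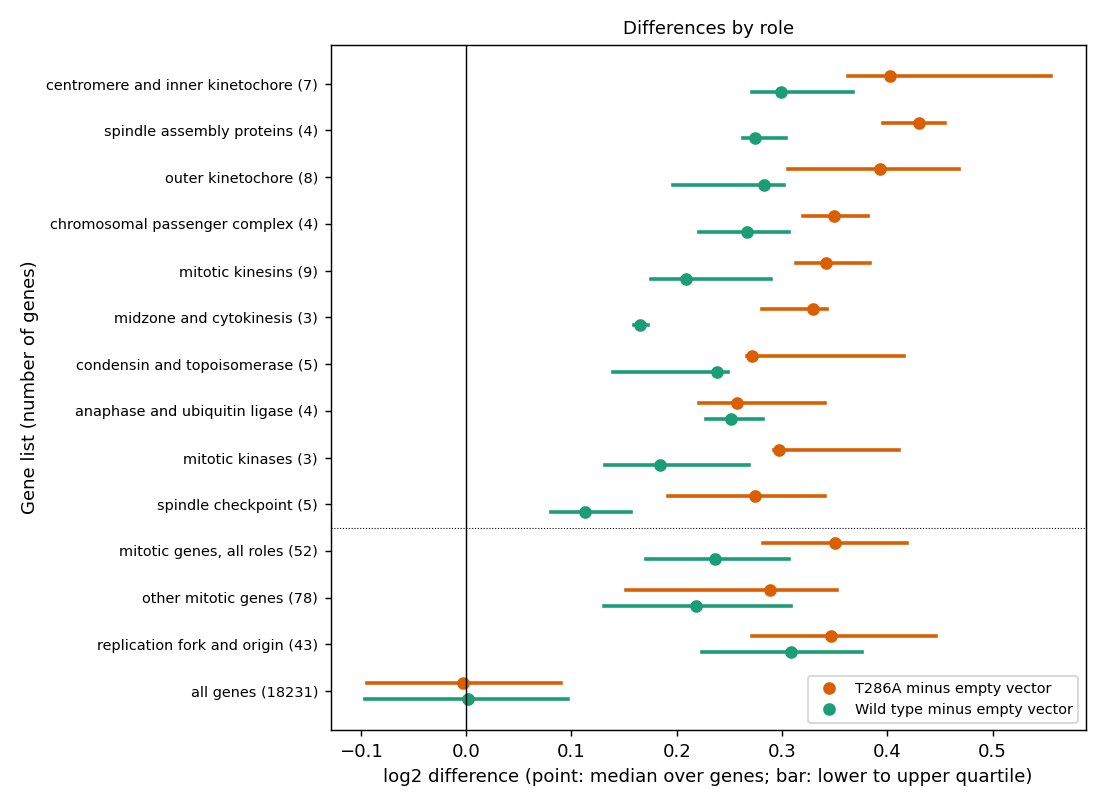
Median log2 difference from empty vector by role, for T286A and wild type, with bars from the lower to the upper quartile over genes and the number of genes in brackets. Medians of the role groups run from 0.26 to 0.43 with T286A and from 0.11 to 0.30 with wild type, and those of all genes lie at 0.00.

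Taken construct by construct, T286A gave 8 calls among the 52 genes and wild type 5, all higher. Over all genes 0.34% were called higher and 0.192% lower with T286A, and 0.603% higher and 1.14% lower with wild type. Called with T286A were CENPM, CENPU, SPC25, HMMR, ASPM, KIF11, NEK2 and SMC2. Called with wild type were CENPM, SPC25, NUSAP1, TTK and SMC2. At an unadjusted p under 0.05, 48 genes were higher and 0 lower with T286A, against 5.95% and 6.15% of all genes. For wild type these were 38 and 0, against 6.08% and 7.42%. All T286A arrays were above both empty vector arrays for 51 genes, and all wild-type arrays for 48, where 15.2% of all genes showed this in each comparison and 16.7% (T286A) and 15.3% (wild type) the reverse. Both comparisons use the same 2 empty vector arrays, so they are not independent of each other. With any 1 array left out, the calls were 0 to 5 for T286A and 0 to 2 for wild type.

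Setting T286A against wild type needs no control array. That comparison called 0 of the 52 genes by limma, where 0.598% of all genes were called higher and 0.389% lower. T286A averaged higher for 48 of the 52, where 50% of all genes did, with a median difference of 0.12. At an unadjusted p under 0.05, 15 genes were higher and 0 lower with T286A, against 7.16% and 6.46% of all genes. All 3 T286A arrays were above all 3 wild-type arrays for 24 genes, and the reverse held for 0, against 9.94% and 9.82% of all genes. SPC24 had the largest difference, at 9.39, 9.29 and 9.22 with T286A and 9.08, 8.77 and 8.99 with wild type. That is 0.35 (95% interval 0.14 to 0.56, adjusted p = 0.149), and wild-type replicate 2 was the lowest array. Next were CENPK at 0.25 (0.05 to 0.45), KIF4A at 0.24 (0.01 to 0.47) and BUB1B at 0.23 (0.10 to 0.36). In this comparison the 5 probe sets of SPC24 ran from -0.02 to 0.35, and the 2 of KIF4A from 0.06 to 0.24. The 4 genes with a lower mean in T286A were BUB3 at -0.03 (-0.17 to 0.10), KIF23 at -0.02 (-0.19 to 0.14), CCNF at -0.02 (-0.15 to 0.11) and NDC80 at -0.02 (-0.19 to 0.16).

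The size of that difference depended on the scaling of the arrays. The median over all genes was 5.97, 6.0 and 5.99 on the T286A arrays and 5.94, 5.87 and 5.95 on the wild-type arrays. With each array centred on that median, the difference over the 52 genes was 0.05 and 36 of 52 were positive. With centring on housekeeping genes it was 0.13, with 48 of 52 positive, and without wild-type replicate 2 it was 0.11, with 43 positive. Either centring shifts all genes of an array alike. The 50% of all genes positive without centring is therefore no yardstick for the 36 or the 48. The differences of both constructs from empty vector kept their sign in all 52 genes under either centring.

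**Figure D4:**
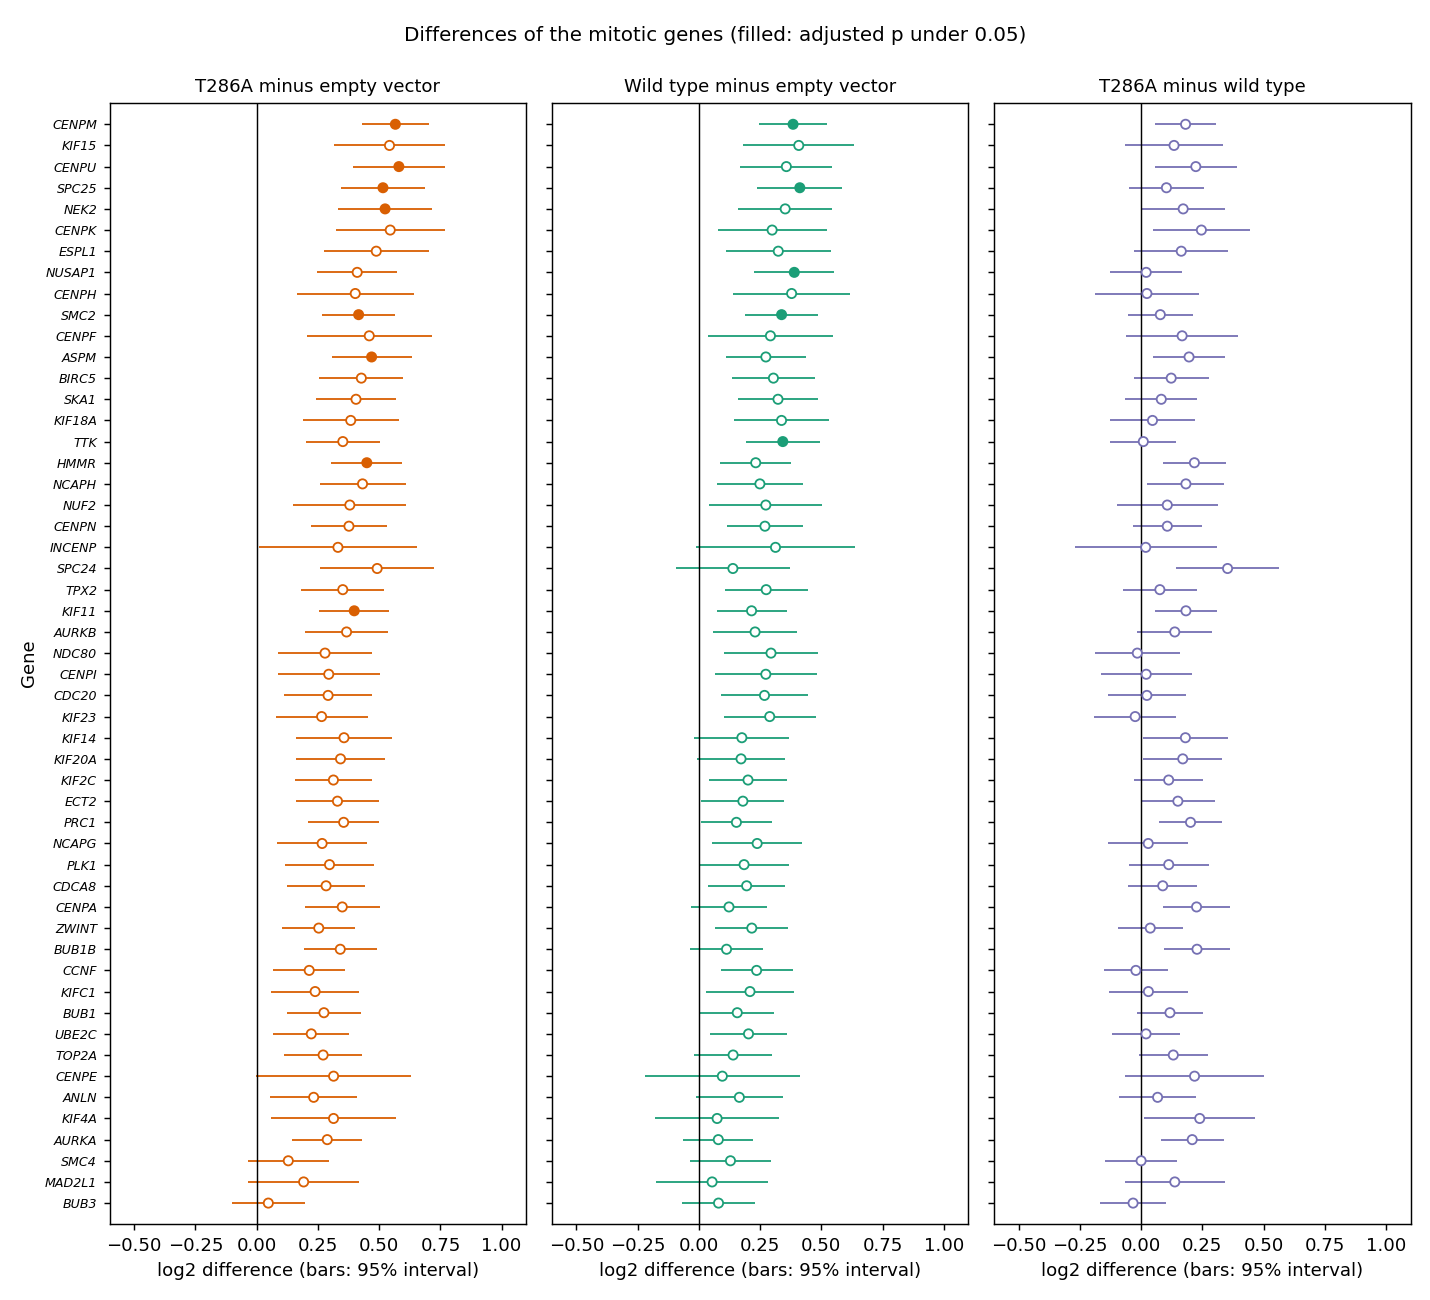
Log2 difference of each of the 52 genes (rows, ordered by the difference of both constructs from empty vector) for T286A minus empty vector, wild type minus empty vector and T286A minus wild type. Points are estimates and bars 95% intervals from the limma fit, and filled points have an adjusted p under 0.05. All points of the first and second panels lie above 0, and in the last panel 48 do, with 0 filled.

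A further 81 mitotic genes were listed by role beside these, of which 78 were measured. Their median difference was 0.29 with T286A, 0.22 with wild type and 0.25 with both together, where 72 of 78 were positive, 12 were called higher and 0 lower. Over all genes 0.702% were called higher and 0.697% lower for both together. CKAP2L, a spindle pole protein, was 0.49 higher (adjusted p = 0.0179), CDCA5, the cohesion factor sororin, 0.41 (adjusted p = 0.0284) and FBXO5, the inhibitor EMI1 of the anaphase-promoting complex, 0.41 (adjusted p = 0.0224). The kinase PBK, the spindle protein TROAP and the condensin subunit NCAPD2 rose by 0.38, 0.38 and 0.37. T286A called 2 of the 78, CKAP2L and FBXO5, where 0.34% of all genes were called higher. Wild type called 5, where 0.603% of all genes were called higher. These were CKAP2L at 0.44, TROAP at 0.43, the augmin subunit HAUS8 at 0.40, CDCA5 at 0.40 and FBXO5 at 0.39. Some genes of the same processes, picked after their values were seen, had no call: MAD1L1, which anchors MAD2 at kinetochores, was at -0.02, and ANAPC1 and CDC27, core subunits of the anaphase-promoting complex, were at -0.02 and -0.01 for both together. Between T286A and wild type 0 of the 78 were called by limma, with 6 higher and 2 lower at an unadjusted p under 0.05, where 7.16% and 6.46% of all genes were. The median of T286A minus wild type over these genes was 0.05, with 58 of 78 positive.

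Transcription factors that are known to drive many of these genes were measured too. FOXM1 was 0.50 higher with T286A (adjusted p = 0.0388) and 0.27 with wild type (adjusted p = 0.147), and 0.38 with both together (adjusted p = 0.0376). MYBL2, which encodes B-MYB, was 0.41 higher with T286A (adjusted p = 0.0453) and 0.30 with wild type (adjusted p = 0.0704). LIN54, the MuvB subunit that binds the CHR element, was 0.43 higher with T286A and 0.50 with wild type (adjusted p = 0.102 and 0.0475), and the other MuvB subunits LIN9, LIN37, LIN52 and RBBP4 ran from 0.02 to 0.19 in both together, not called. In total 7 of the 19 regulators and cyclins listed were called higher for both together and 0 lower, against 0.702% and 0.697% of all genes. Of the 19, 2 had negative differences. These were E2F4 at -0.08 and E2F5 at -0.22 (adjusted p = 0.69 and 0.306), both named after their values were seen, and all construct arrays of E2F5 were below empty vector. MYBL1, a relative of MYBL2, had the reverse order of constructs, 0.39 higher with T286A and 0.88 with wild type (adjusted p = 0.235 and 0.0139). Among the others called, CCNA2 and CCNB2, which encode cyclins A2 and B2, were 0.39 and 0.31 higher, and E2F1 0.59.

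Last, the gap between constructs was set side by side for 3 lists. The 43 replication genes had medians of 0.35 with T286A and 0.31 with wild type, and a median of 0.05 in T286A minus wild type, where 32 of 43 were positive. For the 52 genes described here those values were 0.35, 0.24 and 0.12, with 48 positive, and for the 78 other mitotic genes 0.29, 0.22 and 0.05, with 58 positive. Array median centring took the value of 0.12 to 0.05. That centring shifts all genes of an array alike, so it would lower the medians of all 3 lists by the same amount. The 0.05 of each other list is without centring. Whether the lists differ was not tested.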

How the data were processed

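The authors deposited log2 values from RMA, computed in R 3.5.0 according to the submitters' processing notes, which name no other step. RMA quantile-normalizes probe intensities, so a change in total mRNA is not seen. Of 48864 probe sets, 45220 were annotated to 1 gene, 1325 to several and 2309 to none, and 10 were controls, left out. Where a gene had several probe sets, the brightest on average stood for it (18231 genes). One limma model (version 3.58.1, R 4.3.3, lmFit and eBayes, no intensity filter) held a mean for each group over the 8 arrays, with 5 residual and 3.27 prior degrees of freedom; p-values are two-sided, with Benjamini-Hochberg adjustment. On simulated data with 200 changed genes of 18231, the model called 0% of changes of 0.25 in each comparison with empty vector. Of changes of 0.5 it called 66.6% for both constructs together, 46.3% for T286A and 44.4% for wild type. A gene without a call may therefore still have changed by such an amount. Members and lists were chosen with earlier results of these data known. The naming rule took called members, the 4 largest and 4 smallest differences per comparison and the extremes of each role, up to 6 called other mitotic genes per comparison, and called regulators; further names complete the role groups. Alternatives were other probe set rules, centring, a dim-gene filter, prior and weight settings, only the compared arrays, a replicate block and leaving out arrays.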

Additional observations from a re-analysis of the deposited data

How the results depend on the processing

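Against empty vector, all 52 differences stayed positive under every alternative run, except that 50 did for wild type with the second-highest probe set and without wild-type replicate 1. The number of calls was far less stable, and the cause was not tested. For both constructs together (14 calls) it was 2 with the second-highest probe set and 36 with dim genes left out. Leaving out dim genes refits the whole model on fewer genes. With a trended robust prior it was 42, and with 1 construct array left out 1 to 8. For T286A (8 calls) it was 17 with the mean of all probe sets, 1 with the second-highest, 13 with housekeeping centring, 4 with array median centring, 36 without dim genes, 41 with the trended robust prior, 25 with array weights, 0 with only the compared arrays and 0 to 5 with 1 array left out. For wild type (5 calls) it was, under the mean of all probe sets, 9, under the second-highest 0, without dim genes 18, with the trended robust prior 27, with only the compared arrays 0 and with 1 array left out 0 to 2. Wild-type calls were 4 with housekeeping centring and 7 with array median centring. T286A against wild type (0 calls) gave 5 without dim genes and 8 with the trended robust prior. The share of all genes called under each alternative was not counted, so these call counts have no yardstick beside them. The medians moved to 0.3036 (second-highest probe set), 0.3491 (housekeeping centring) and 0.3199 (array median centring) for both together, to 0.2703, 0.2943 and 0.304 under those settings for wild type, to 0.4206 for T286A with housekeeping centring, and, for T286A against wild type, to 0.1004 with the second-highest probe set and 0.05054 with array median centring. With 1 array left out they ran from 0.2727 to 0.3007 for both together and from 0.2254 to 0.2538 for wild type. The wild-type differences that turned negative with the second-highest probe set were those of INCENP (-0.04, against 0.31 with the probe set used) and NCAPG (-0.07, against 0.24). Other single genes changed sign too. For T286A against wild type, BUB3 was 0.002444 with the mean of all probe sets and 0.03301 with the second-highest, CCNF 0.01264 with the second-highest, and with 1 array left out KIF23 ran from -0.07457 to 0.008003, CCNF from -0.04442 to 0.000914 and NDC80 from -0.03854 to 0.027. For wild type, MAD2L1 ran from -0.01837 to 0.1445 and KIF4A from -0.01329 to 0.1784.

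Whether the replicate numbers pair the arrays could not be settled. Deviations of same-numbered arrays correlated at -0.0909 to 0.119 and those of other pairs at -0.11 to 0.0962. The 2 empty vector arrays deviate from their mean by equal and opposite amounts, so each correlation with 1 of them recurs with the opposite sign. Between T286A and wild-type arrays, same-numbered pairs correlated at 0.0409, 0.119 and 0.00345, and other pairs at -0.11 to 0.0962. With the replicate number as a block the calls were 0 for both constructs together, 0 for T286A, 0 for wild type and 0 for T286A against wild type, and the medians were 0.2933, 0.3544, 0.2454 and 0.1154. With 8 arrays in all, precision is limited by their number.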

Other observations

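Of the 52 genes, 35 had more than 1 probe set, with 83 probe sets besides those used. For both constructs together, 80 of these 83 had the sign of the probe set used, and their median difference was 0.29, the same to 2 decimals as for the probe sets used. The other 3 belonged to BIRC5 and PRC1, and 0 of the 3 had an unadjusted limma p under 0.05. For T286A 4 of the 83 had the opposite sign and for wild type 5, of which 1, a BIRC5 probe set at -0.30, had an unadjusted limma p of 0.0275. For T286A against wild type 14 of the 83 had the opposite sign. The 12 probe sets of BIRC5 ran from -0.16 to 0.37. Its negative ones averaged 6.27 and 4.17 over all arrays, against 10.68 for the probe set used. The negative one of PRC1 averaged 4.79, below the median gene (5.94). The 7 probe sets of SMC2 ran from 0.30 to 0.56, the 7 of NEK2 from 0.17 to 0.54 and the 6 of CENPN from 0.11 to 0.45. The lowest values of NEK2 and CENPN came from probe sets averaging 4.89 and 4.70, also below the median gene. Of the genes with the smallest differences, BUB3 and SMC4 had other probe sets with larger ones, up to 0.22 and 0.32.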
